A study of Mus musculus with 23 samples.

Results

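Mest, Copg2 and Klf14 are neighbouring genes of the Mest domain on proximal chromosome 6, and the 3 genes were taken by symbol from the 26183 gene rows of the deposited count tables. They were followed in 23 single E13.5 embryos, counted once as all reads and once as reads assigned to the 129 (maternal) or DBA (paternal) genome. All embryos were 129/DBA hybrids, of 2 sexes and 3 genotypes of Zfp57. M+Z+ embryos had maternal (oocyte) and zygotic Zfp57, M-Z+ embryos lacked the maternal product only, and M-Z- embryos lacked both. The titles give Zfp57-/+ for the M+Z+ and the M-Z+ embryos and Zfp57-/- for the M-Z- embryos. By the titles the control embryos also carried a mutant allele, while the count columns name them WT. The paper describes M+Z+ embryos as Zfp57+/- in some places and as Zfp57+/+ or wild-type in others. There were 6 M+Z+, 3 M-Z+ and 4 M-Z- female embryos and 4 M+Z+, 3 M-Z+ and 3 M-Z- male embryos. The question for these genes was how their levels and parental alleles differ when ZFP57 is absent, and whether this differs between the sexes.

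ZFP57 is a KRAB zinc finger protein that keeps the parent-specific DNA methylation of imprinting control regions through the divisions of the early embryo. The control region of this domain lies at the promoter of Mest and carries its methylation on the maternal chromosome, so Mest is transcribed from the paternal allele in most embryonic tissues. Mest (also called Peg1) encodes a membrane protein of the alpha/beta hydrolase fold family and is known for its expression in mesoderm and for its effect on fetal growth. Copg2 encodes a gamma subunit of COPI, the protein coat of vesicles that return from the Golgi apparatus to the endoplasmic reticulum. Klf14 is a gene without introns for a zinc finger transcription factor of the Kruppel-like family, transcribed from the maternal allele, and it has no methylated control region of its own.

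In the mm9 coordinates of the tables, Mest spans chr6:30683506-30698466 on the plus strand, Copg2 spans chr6:30697554-30846794 on the minus strand, and Klf14 lies at chr6:30906021-30908990 on the minus strand as a single exon of 2970 bases. The last exons of Mest and Copg2 face each other and share 913 bases, which is 32.9% of the exon bases of Mest and 21.7% of those of Copg2. Promoter windows from RefSeq (GRCm38.p6), 250 bases before to 50 after a transcript start, were found for Mest and Copg2, and each window has a single exact match in the mm9 sequence of chromosome 6. They are shown because the binding motif of ZFP57, TGCCGC or GCGGCA on the other strand, can be read in them, and capitals mark every copy of it. The internal start of Mest, at chr6:30687800-30688099 in mm9 (plus strand), has 2 copies, which begin 242 and 67 bases before the start. The window of the upstream start of Mest, chr6:30683256-30683555 (plus strand), has 0 copies, and the window of Copg2, chr6:30846745-30847044 (minus strand), has 1 copy 116 bases before its start. Of all 32851 promoter windows of this length, 11.6% hold the motif and 1.53% hold 2 or more copies, so the copies are a description of these windows and not evidence of binding.

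Mest, internal start: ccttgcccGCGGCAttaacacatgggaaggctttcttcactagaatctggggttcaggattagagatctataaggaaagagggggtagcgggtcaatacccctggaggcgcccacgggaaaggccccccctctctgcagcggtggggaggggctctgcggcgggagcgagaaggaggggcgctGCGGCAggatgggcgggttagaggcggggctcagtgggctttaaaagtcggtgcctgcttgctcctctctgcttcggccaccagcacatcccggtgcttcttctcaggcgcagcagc
Mest, upstream start: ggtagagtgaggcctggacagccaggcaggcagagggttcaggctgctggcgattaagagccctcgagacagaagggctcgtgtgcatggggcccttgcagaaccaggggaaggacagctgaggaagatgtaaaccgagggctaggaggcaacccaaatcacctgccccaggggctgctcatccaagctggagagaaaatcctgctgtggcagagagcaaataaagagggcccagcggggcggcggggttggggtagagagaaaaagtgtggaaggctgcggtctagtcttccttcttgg
Copg2: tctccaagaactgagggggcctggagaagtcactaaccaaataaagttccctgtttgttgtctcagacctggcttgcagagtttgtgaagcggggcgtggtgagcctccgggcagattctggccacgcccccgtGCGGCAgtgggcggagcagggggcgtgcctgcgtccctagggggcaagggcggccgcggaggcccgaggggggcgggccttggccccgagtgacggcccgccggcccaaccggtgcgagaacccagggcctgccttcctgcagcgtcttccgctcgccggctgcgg

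The internal start of Mest has 17 CpG dinucleotides in its window and the upstream start has 8, against a median of 7 over all windows, while the window of Copg2 has 25. Mest also hosts the hairpin of Mir335 on its own strand, at chr6:30691299-30691396, outside the exons that were counted for Mest. Its mature arms are given here with the seed (bases 2 to 8) in capitals, because the row of Mir335 was followed too.

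mmu-miR-335-5p: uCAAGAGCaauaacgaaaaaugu
mmu-miR-335-3p: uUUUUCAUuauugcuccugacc

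The 23 libraries held 15155251 to 24078410 reads counted in genes and 2460255 to 3944998 reads assigned to an allele. Zfp57 itself had 52.7 to 99.1 counts per 1000000 reads (CPM) in the female M+Z+ embryos and 31.9 to 34 CPM in female M-Z- embryos, and 68.0 to 88.8 CPM in male M+Z+ and 25.5 to 35.3 CPM in male M-Z- embryos, so Zfp57 was lower in the M-Z- embryos of both sexes without overlap, although reads of the gene remained. Of 36 marker genes of embryonic tissues, 36 had reads in every embryo, and the summed level of 8 placental markers never passed 4.66 CPM. Of 39 marker genes tested by edgeR, 0 were called between M-Z- and M+Z+ embryos in either sex. An unadjusted p under 0.05 was reached by 16 of 39 in females and 12 of 39 in males. These shares exceed the 15.5% and 17% of all tested genes that reached it. All 4 liver markers were among them in both sexes, with median log2 changes of -0.67 and -0.87. None of the skin, gut or yolk sac markers was. Reads were counted by strand, with overlaps allowed. Tsix, which is antisense to Xist and shares 10.9% of its exon bases, had 0.140% to 0.445% of the Xist count in females. This rate was carried over to Mest, taking reads to lie evenly along exons. On that basis a read of Mest could be counted for Copg2 at no more than 1.28% to 4.07% per shared base. This would allow at most 6.77% to 45.6% of the Copg2 count of a female embryo to come from Mest. Transcripts of Tsix itself are included in this limit. The shared bases lie at the start of Xist but at the end of Mest, and coverage along transcripts was not measured. The limit thus holds only under even coverage, and the true share could be higher.

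In M+Z+ embryos the 3 genes differed widely in level per exon length. Mest had 914 ± 49.2 transcripts per 1000000 (TPM; SD, n = 10), which ranked 130 among 22207 detected genes. Copg2 had 37.7 ± 2.46 TPM and was the lowest of the 9 measured COPI genes, below its paralogue Copg1 at 87.6 ± 5.10 TPM. Klf14 had 6.19 ± 0.895 TPM and ranked 13 among the 17 measured Kruppel-like genes, whose mean levels ran from 0.00682 TPM for Klf17 to 106 TPM for Klf1. The order Mest, Copg2, Klf14 held in every one of the 6 groups, and no embryo of one gene overlapped with the next in TPM.

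Mest was higher in all 7 M-Z- embryos than in any M+Z+ embryo, in both sexes. In females, M+Z+ embryos had 1119 to 1209 CPM (median 1158) and the M-Z- embryos had 1856, 2366, 2243 and 2147 CPM. In males, M+Z+ embryos had 1123, 1166, 1198 and 1174 CPM and the M-Z- embryos had 2041, 2419 and 1693 CPM. The groups did not overlap, and the lowest M-Z- embryo of each sex stood well above the highest M+Z+ embryo. On the log2 scale M-Z- differed from M+Z+ by 0.89 ± 0.062 (SE) in females (1.85-fold, edgeR adjusted p = 9.7e-08) and 0.86 ± 0.12 in males (1.82-fold, adjusted p = 0.00387). The spread was larger among M-Z- than among M+Z+ embryos, with an SD of 217 against 34.6 CPM in females and 363 against 31.5 CPM in males.

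Klf14 moved the other way. Female M+Z+ embryos had 6.69 to 9.75 CPM (median 8.37), whereas the 4 female M-Z- embryos had 3.67, 0.158, 2.57 and 2.37 CPM, so these groups did not overlap either. The log2 change was -1.95 ± 0.33 in females (edgeR adjusted p = 0.00519). The value of 0.158 CPM in female M-Z- replicate 2 rested on 3 reads, or 1.86% of the M+Z+ mean with a 95% exact Poisson interval of 0.383% to 5.42% that covers counting error only. Male M+Z+ embryos had 6.31, 8.02, 10.3 and 8.70 CPM, and male M-Z- embryos had 1.32, 1.71 and 7.12 CPM. Replicates 1 and 2 of the male M-Z- embryos were far below every control, and replicate 3 lay within the control range. The male log2 change of -1.27 ± 0.42 did not pass the test (edgeR adjusted p = 0.173). Leaving out M-Z- replicate 3 gave -2.38 (adjusted p = 0.000477), so whether Klf14 is called in males rests on this embryo.

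Copg2, between the other two on the chromosome, did not pass the test in either sex. Female M+Z+ embryos had 66.4 to 75.4 CPM (median 72.3) and female M-Z- embryos had 73.4, 69.4, 70.7 and 58.2 CPM. Male M+Z+ embryos had 76.6, 75.9, 73.7 and 70.4 CPM and male M-Z- embryos had 67.6, 68.8 and 66.3 CPM. The female groups overlapped, and the male M-Z- embryos lay just below the lowest male M+Z+ embryo. The log2 change was -0.08 ± 0.058 in females (edgeR adjusted p = 0.58) and -0.09 ± 0.069 in males (adjusted p = 0.497). Its approximate 95% interval reached from 0.877 to 1.03-fold in females and from 0.852 to 1.03-fold in males. These intervals do not take in reads of Mest that may be counted for Copg2. The limit on such reads given above ran from 6.77% to 45.6% of the Copg2 count, with at most 20.4% in M+Z+ embryos. It came from females only and holds only under even coverage along exons. No limit was available for males.

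**Figure D1:**
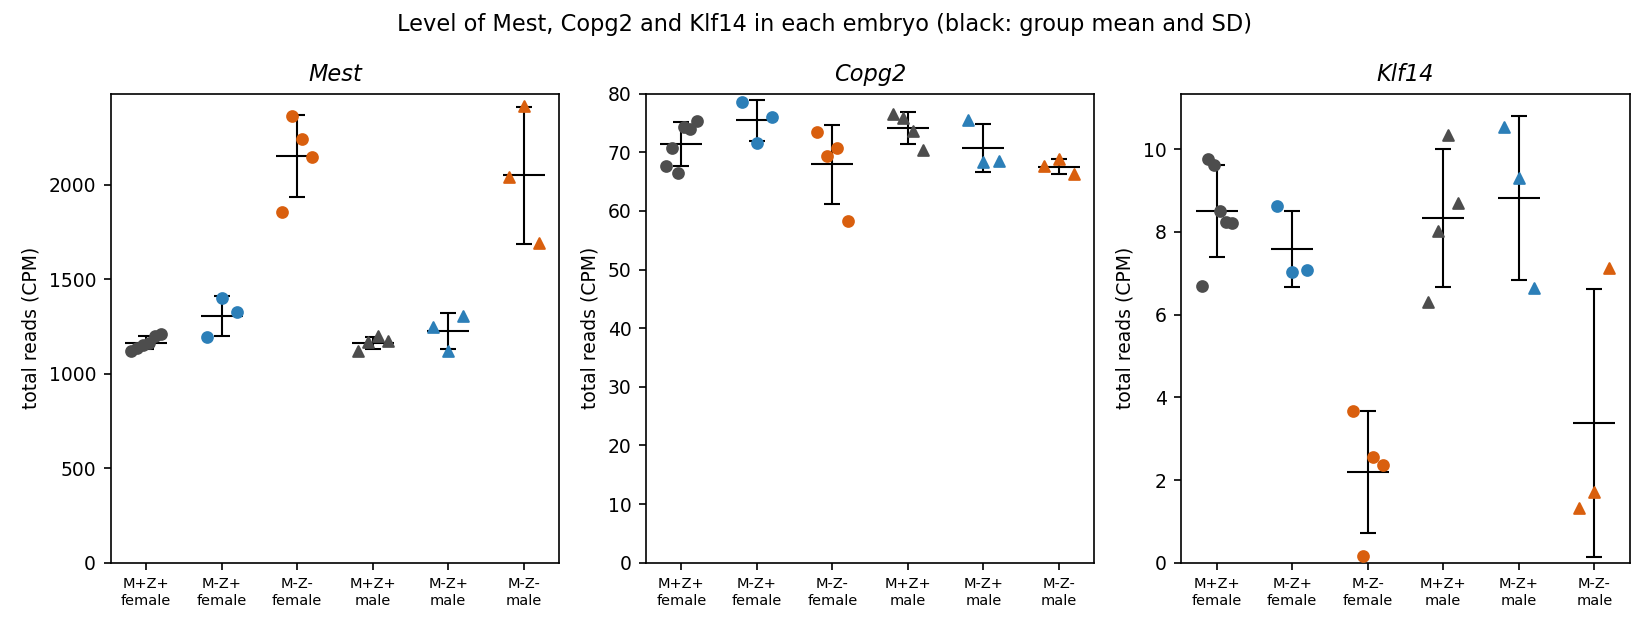
All-read level of Mest, Copg2 and Klf14 in CPM (vertical axes, linear, from 0) for each embryo in the 6 groups of genotype and sex. Each point is an embryo, and black lines give the group mean and SD. Mest lies between 1693 and 2419 CPM in M-Z- embryos against 1119 to 1209 CPM in M+Z+ embryos, Klf14 is low in 6 of 7 M-Z- embryos, and Copg2 stays between 58.2 and 78.6 CPM.

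For M-Z- against M+Z+ the members called were Mest and Klf14 (2 of 3) among females and Mest (1 of 3) among males, where called means an edgeR adjusted p under 0.05 and a log2 change of at least 0.5 in size. The same rule called 0.563% of 16871 tested genes in females and 0.39% of 16664 in males. The male share moved widely when 1 embryo was left out, and was highest without M-Z- replicate 3. CPM values that do not overlap between these groups are commoner, at 4.29% of tested genes in females and 10.8% in males, a condition met by Mest and Klf14 in females and by Mest and Copg2 in males. Whole embryos were measured, so a change in the number of cells that express a gene cannot be told apart from a change in RNA per cell.

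In embryos without the maternal product alone, none of the 3 genes was called against M+Z+. Mest had 1195, 1403 and 1326 CPM in female M-Z+ embryos and 1250, 1122 and 1307 CPM in male M-Z+ embryos, so 2 of the 3 females and 2 of the 3 males were above every M+Z+ embryo of their sex. Its log2 change against M+Z+ was 0.16 ± 0.068 in females (unadjusted p = 0.0344, edgeR adjusted p = 0.733) and 0.05 ± 0.12 in males (adjusted p = 0.945). Klf14 had 8.63, 7.02 and 7.08 CPM in female and 10.5, 9.30 and 6.64 CPM in male M-Z+ embryos. Its log2 change was -0.18 ± 0.31 in females and 0.06 ± 0.38 in males. Copg2 had 78.6, 71.6 and 76.1 CPM in female and 75.5, 68.3 and 68.4 CPM in male M-Z+ embryos. The count of 0 called members by edgeR stands against 0.0593% of tested genes in females and 0.048% in males, and the CPM of all 3 overlapped between the groups, which 3.27% and 12.4% of tested genes did not. At an unadjusted p under 0.05, 1 of these 6 tests passed, that of Mest in females, where 6.64% of all tested genes in females and 7.86% in males did so.

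Against M-Z+ embryos, Mest in M-Z- embryos differed by a log2 change of 0.73 ± 0.075 in females (edgeR adjusted p = 3.07e-05) and 0.81 ± 0.13 in males (adjusted p = 0.0251), and both were called, beside 0.196% and 0.15% of tested genes. The male call was lost, with log2 changes of 0.75 to 0.86, when either of male M-Z+ replicates 1, 2 and 3 or male M-Z- replicate 1 was left out (adjusted p = 0.181, 0.245, 0.11 and 0.0584). Groups without overlap made up 10.2% of tested genes in females and 13% in males for this contrast, and Mest in both sexes and Klf14 in females were among them. Klf14 in females had a log2 change of -1.77 ± 0.37, and its adjusted p of 0.0645 did not pass. It passed when M-Z- replicate 1 was left out (-2.15, adjusted p = 0.024) and when replicate 2 was (-1.39, adjusted p = 0.00112). In males the log2 change of Klf14 was -1.33 ± 0.44 (adjusted p = 0.456), and leaving out M-Z- replicate 3 gave -2.44 (adjusted p = 0.000827). This contrast and the one with M+Z+ share the M-Z- embryos and are not independent. The adjusted p of Copg2 was 0.58 in females and 0.991 in males.

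No difference between the sexes passed a test for these genes. In M+Z+ embryos the log2 difference of females minus males was -0.00 ± 0.084 for Mest, -0.06 ± 0.057 for Copg2 and 0.03 ± 0.33 for Klf14, and 0 of the 3 were called beside 0.0817% of 17139 tested genes. The change of M-Z- against M+Z+ in males minus that in females had log2 values of -0.03 ± 0.13 for Mest, -0.03 ± 0.09 for Copg2 and 0.67 ± 0.58 for Klf14, with edgeR adjusted p-values of 0.978, 0.968 and 0.847. The Klf14 value turned to -0.45 without male M-Z- replicate 3, was 0.29 without female M-Z- replicate 2, and was 1.05 and 1.06 without replicate 1 of the female and of the male M-Z- embryos. Thus Klf14 was called in females and not in males, but the difference between the sexes was not shown. The approximate 95% interval of that difference, -0.46 to 1.81, does not show that the sexes act alike. Of 17139 genes, 0 were called for this term by edgeR and 0 by DESeq2, and 1107 had an unadjusted p under 0.05 by edgeR.

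The M-Z- embryos differed among themselves, and Mest and Klf14 could be followed embryo by embryo against the M+Z+ mean of the sex. Female replicate 2 had Mest at 203% and Klf14 at 1.86%, female replicate 3 had 193% and 30.2%, female replicate 4 had 185% and 27.9%, and female replicate 1 had 160% and 43.2%. Male replicate 2 had Mest at 208% and Klf14 at 20.5%, male replicate 1 had 175% and 15.8%, and male replicate 3 had 145% and 85.3%. The embryos of each sex with the least elevated Mest, female 1 and male 3, were also those with the highest Klf14. Over the 7 M-Z- embryos, a set chosen after the values were seen, Pearson's r of log2(CPM + 0.5) was -0.77 (exact permutation p = 0.0419) and Spearman's rho was -0.68 (exact p = 0.11). Adjusted over the 3 pairs of members the Pearson p was 0.126, and r was -0.34 without the 2 embryos farthest from the median of Mest, so the relation rests on those embryos. Without male replicate 3 alone r was -0.58 (exact p = 0.233). On the scale of the percentages above, as a fold of the M+Z+ mean of the sex, r over the 7 embryos was -0.84 (exact p = 0.0105, adjusted over the 3 pairs 0.0315) and rho was -0.68 (exact p = 0.11). On that scale r was -0.29 without the 2 embryos farthest from the median of Mest and -0.66 without male replicate 3 (exact p = 0.146), so it too rests on those embryos.

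Markers of other tissues moved among the same embryos. The summed level of 4 liver markers (Afp, Alb, Apoa1 and Ttr) was 2002, 1612 and 4182 CPM in male M-Z- replicates 1, 2 and 3, against 4393 to 6375 CPM in male M+Z+ embryos, and 3013, 2423, 2346 and 3833 CPM in female M-Z- replicates 1 to 4 against 3128 to 6720 CPM. The sum of 5 erythroid markers was 1191, 3005 and 582 CPM in the male M-Z- embryos against 414 to 612 CPM in male M+Z+ embryos, and 731, 985, 1053 and 726 CPM in the female M-Z- embryos against 406 to 983 CPM. The higher sums lay in the embryonic globins Hba-x, at 247, 733 and 2239 CPM from the lowest to the highest male M-Z- embryo against a M+Z+ mean of 191 CPM, and Hbb-bh1, at 59.1, 221 and 532 CPM against 44.3 CPM. The male means of Gata1 (21.6 against 32.3 CPM) and Epor (24.2 against 34.2 CPM) were lower and Alas2 had 203 against 209 CPM. The median log2 change of the 5 was 0.00 in males and -0.29 in females. The sum of 3 heart markers (Nppa, Myh6 and Myl7) was 127, 149 and 68.1 CPM in male M-Z- replicates 1, 2 and 3 against 64.6 to 97.4 CPM, and 69.7, 119, 109 and 89.8 CPM in female M-Z- replicates 1 to 4 against 67.9 to 90.3 CPM. The sum of 5 neural markers (Sox2, Tubb3, Map2, Pax6 and Neurod1) was 843, 813 and 769.6 CPM in male M-Z- replicates 1, 2 and 3 against 826 to 925 CPM, and 887, 882, 884 and 799 CPM in female M-Z- replicates 1 to 4 against 854 to 1063 CPM. None of these markers was at 0 in any group. Endothelium (3 markers) had 228 to 338 CPM in male M-Z- against 223 to 236 CPM in M+Z+ embryos. In females it had 249 to 263 against 217 to 253 CPM. The 2 yolk sac markers had 1.73 to 2.42 against 2.45 to 3.41 CPM in females. Males had 1.57 to 2.75 against 2.57 to 3.49. The 2 gut markers had 2.32 to 2.82 against 0.706 to 2.27 CPM in males. Females had 1.13 to 2.11 against 1.23 to 2.09. Skeletal muscle, cartilage, mesenchyme and skin sums overlapped in both sexes. Male replicate 3, the embryo with control-like Klf14, was nearest to the male controls in the liver sum and within their range in the erythroid and heart sums, but farthest below them in the neural sum. Among female M-Z- embryos replicate 4 was within the control range in the liver, erythroid and heart sums and below it in the neural sum. Replicate 1, with the highest Klf14 of them, was below that range in the liver sum and within it in the erythroid, heart and neural sums. The part of tissue makeup in the levels of Mest and Klf14 was not tested.

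**Figure D2:**
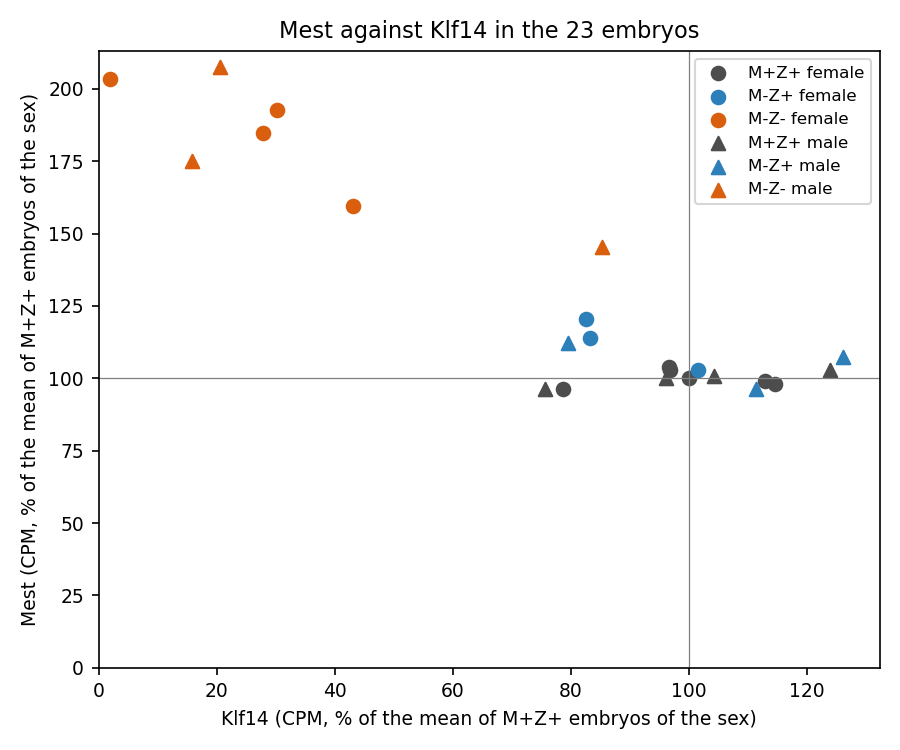
Level of Mest (vertical axis) against Klf14 (horizontal axis) in the 23 embryos, each as a percentage of the mean CPM of M+Z+ embryos of its sex, with grey lines at 100%. The M-Z- embryos (orange) form the upper left, from 208% for Mest in male replicate 2 to 145% in male replicate 3, which alone has Klf14 above 43.2%.

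In M+Z+ embryos the levels of the 3 genes were not related beyond what permutation gives. Over the 10 M+Z+ embryos r was 0.51 for Mest and Klf14 (permutation p = 0.136, rho = 0.33, p = 0.349), 0.37 for Mest and Copg2 (p = 0.286, rho = 0.22, p = 0.535) and -0.24 for Copg2 and Klf14 (p = 0.514, rho = -0.52, p = 0.134). The smallest Pearson p adjusted over the 3 pairs was 0.407 and the smallest Spearman p was 0.403. Without the 2 embryos farthest from the median of the first gene of each pair, r was 0.47, 0.04 and -0.65. Within the 6 females it was 0.15, 0.77 and -0.02, with adjusted permutation p of 0.25 or more. Female M+Z+ replicates 1 to 3 lay below replicates 4 to 6 in both Mest and Copg2. Mest had 1119 to 1153 against 1163 to 1209 CPM and Copg2 had 66.4 to 70.7 against 73.9 to 75.4 CPM. This split was seen in the values and was not tested.

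The neighbours of Mest were examined as a list of genes within the same stretch of chromosome 6. Of 16 list genes reported here, 13 were tested in females and 14 in males. For M-Z- against M+Z+, 0 of these were called in either direction in females or in males by edgeR, and 4 in each sex had an unadjusted p under 0.05, beside the 15.5% and 17% of all tested genes given above. Their median log2 change was -0.13 in females and -0.08 in males, against -0.00 and 0.00 over all tested genes.

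Klhdc10, which encodes a kelch-repeat substrate receptor of a ubiquitin ligase, had a smaller difference. Female M+Z+ embryos had 224 to 244 CPM and the female M-Z- embryos had 196, 162, 170 and 166 CPM, without overlap. Male M+Z+ embryos had 222, 242, 233 and 237 CPM and male M-Z- embryos had 184, 142 and 194 CPM, again without overlap. The log2 change was -0.43 ± 0.05 in females (edgeR adjusted p = 5.94e-05) and -0.39 ± 0.077 in males (adjusted p = 0.0461). Both passed the adjusted p and fell short of the minimum size of 0.5, so they are not among the calls. Leaving out 1 embryo at a time gave adjusted p-values up to 0.000704 in females and up to 0.18 in males, where it no longer passed without M+Z+ replicate 1, 2 or 3. Klhdc10 lies upstream of Mest at chr6:30351855-30405174 (mm9), and Cep41, a centrosomal protein gene nearest to Mest on that side in the list, had log2 changes of -0.18 ± 0.067 and -0.15 ± 0.088 that did not pass.

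Reads over the hairpin of Mir335, whose mature arms are shown above, numbered 9 to 53 per library, and such long-RNA libraries do not measure the mature miRNA. Its level was 0.871 to 1.90 CPM in female M+Z+ embryos and 0.832, 2.79, 1.77 and 1.73 CPM in female M-Z- embryos. The male M+Z+ embryos had 1.41, 0.98, 1.16 and 1.5 CPM and the male M-Z- embryos 2.65, 2.63 and 1.60 CPM, where the groups did not overlap. The log2 change was 0.52 ± 0.30 in females and 0.89 ± 0.31 in males, and neither passed the test (edgeR adjusted p = 0.436 and 0.19). Podxl, Plxna4, Mkln1, Nrf1, Ube2h, Zc3hc1 and Tmem209 had changes between -0.19 and 0.15 on the log2 scale in both sexes, and none of them passed. Tsga13, between Copg2 and Klf14, was too low to be tested, with group means of 0.267 to 0.426 CPM.

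**Figure D3:**
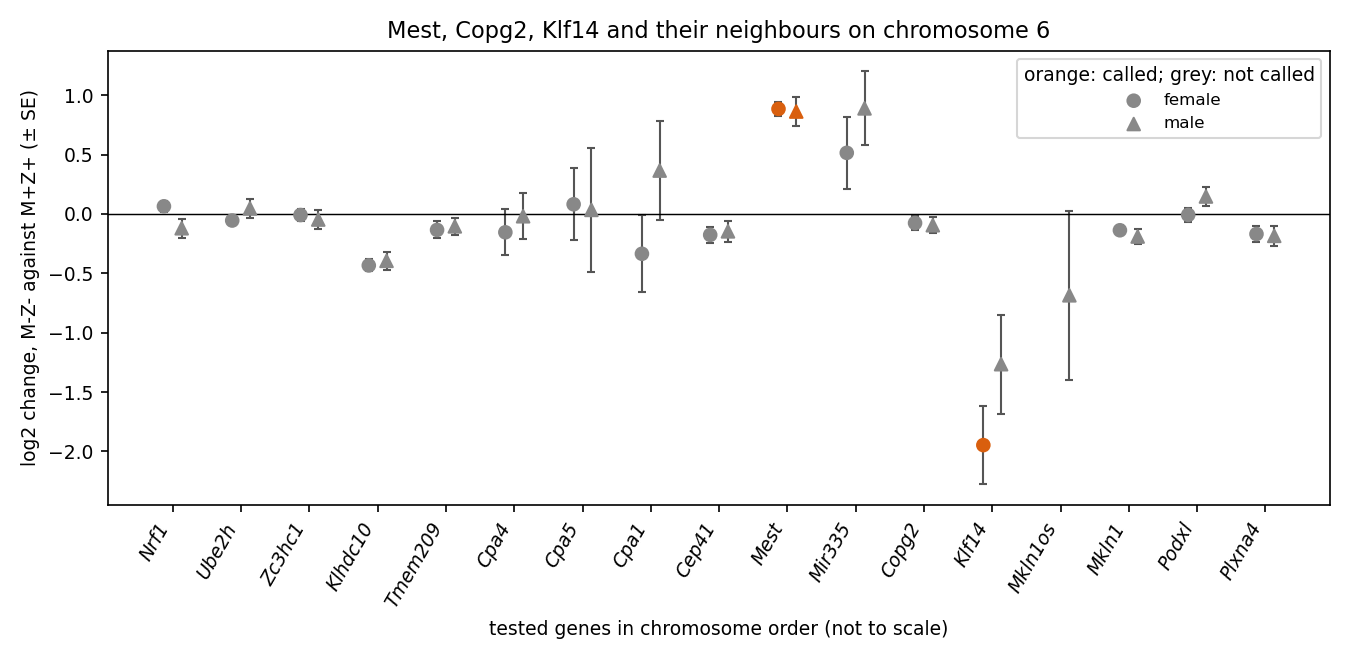
Log2 change of M-Z- against M+Z+ embryos with its SE (vertical axis) for the tested genes of the domain reported here in chromosome order (horizontal axis, not to scale), females as circles and males as triangles. Orange marks called genes. Mest at 0.89 and 0.86 and Klf14 at -1.95 and -1.27 stand on opposite sides of Copg2, which is near 0.

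The families of Copg2 and Klf14 were followed as lists. Of 8 other COPI genes, 8 were tested and 0 were called in any of the 6 contrasts, and for M-Z- against M+Z+ they changed by -0.04 to 0.08 among females and by -0.23 to 0.20 among males (medians 0.00 and 0.02). At an unadjusted p under 0.05 there were 0 in females and 2 in males, against the same all-gene shares of 15.5% and 17%. The paralogue Copg1 had log2 changes of 0.02 ± 0.039 and 0.04 ± 0.062. Of 16 other Kruppel-like genes, 15 were tested and 0 were called in any contrast, and the same contrast gave -0.38 to 0.21 among females and -0.51 to 0.30 among males (medians -0.01 and -0.07). By an unadjusted p under 0.05, 6 passed in females and 0 in males, where 15.5% and 17% of all tested genes did so. The change of Klf14 itself, -1.95 and -1.27, lay outside both ranges.

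No parental share could be given for any of the 3 genes, because the allele-assigned tables hold almost no reads for them. Mest had 605546 reads over the 23 embryos and 0 allele-assigned reads, Klf14 had 2677 reads and 0, and Copg2 had 29152 reads and 2, both paternal and both in male M-Z- replicate 2. The genes around them were covered no better. From Smo to Klf14, chr6:29685497-30908990 in mm9, 14 genes with at least 1000 reads in all followed each other with an average of 10 or fewer allele-assigned reads per embryo, and 12 of them had 0. Such gaps are common, since 49.5% of 13572 autosomal genes of this depth were uncovered by the same rule, and 86 of 1870 runs of uncovered genes were at least as long. Whether Mest came from both alleles in M-Z- embryos is therefore not measured here.

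**Figure D4:**
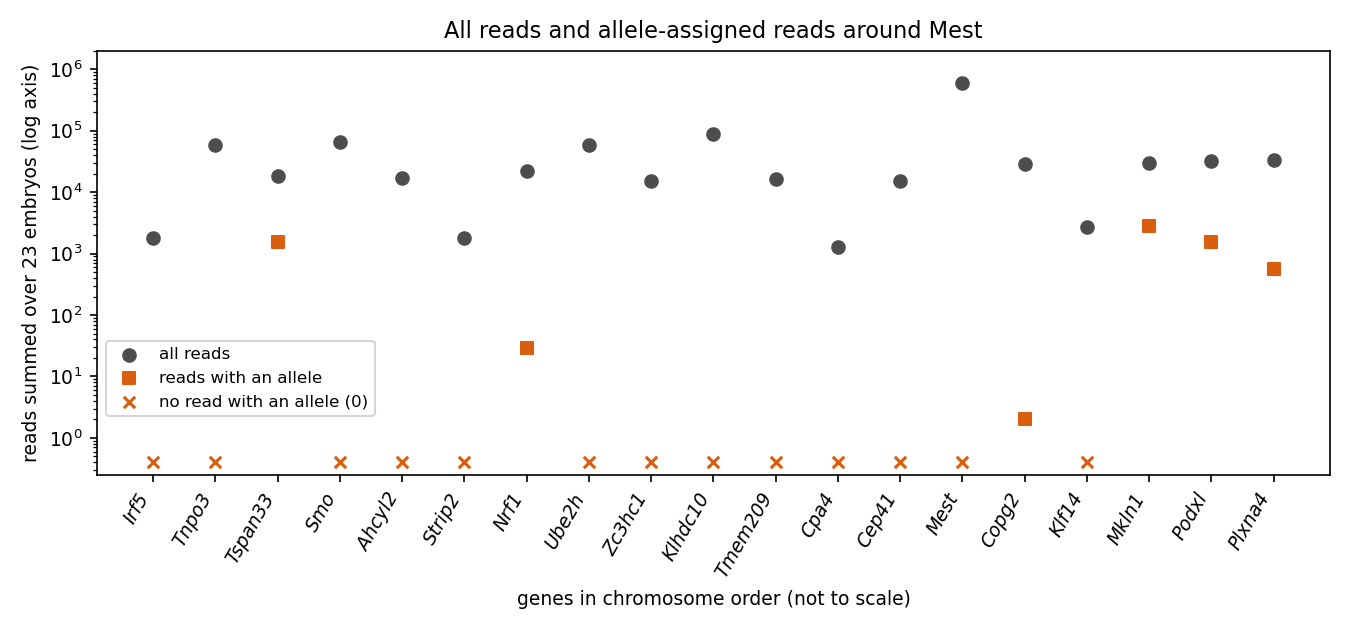
All reads (grey circles) and allele-assigned reads (orange squares, or crosses for 0) summed over the 23 embryos (vertical axis, log scale) for genes reported here in chromosome order around Mest. Mest has 605546 reads and none with an allele, and coverage resumes at Mkln1 with 2838 allele-assigned reads.

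Mkln1, which encodes muskelin, is the nearest covered gene beyond Klf14, and its P-score (paternal share minus 0.5) is near 0 when both alleles contribute alike. Among females the P-score of the M+Z+ group was -0.04 ± 0.051 (SD, n = 6) and that of the M-Z- group 0.03 ± 0.034 (n = 4). Among males these scores were -0.03 ± 0.053 (n = 4) and 0.05 ± 0.04 (n = 3), and the groups overlapped in both sexes. The M-Z+ groups had -0.04 ± 0.062 in females and -0.05 ± 0.035 in males (n = 3 each). Between M-Z- and M+Z+ embryos the difference was 0.07 in females (exact two-sided permutation p = 0.0429, smallest possible 0.00476) and 0.08 in males (exact p = 0.114, smallest possible 0.0286), and the smallest p adjusted over the 27 comparisons of the 3 covered genes was 0.771. The edgeR allele test did not call it either (adjusted p = 0.815 and 0.721), beside 0.401% and 2.53% of genes called. Against M-Z+ embryos the difference was 0.08 in females (exact p = 0.143, smallest possible 0.0286) and 0.10 in males (exact p = 0.1, the smallest possible, without overlap), with edgeR allele test adjusted p of 0.879 and 0.679 beside 0.231% and 2.27% of genes called. Each embryo had 79 to 170 allele-assigned reads for Mkln1. Podxl, for the surface sialoprotein podocalyxin, had mean P-scores between -0.08 and 0.01 in the 6 groups, and the smallest exact p of its comparisons was 0.295.

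Plxna4, which encodes a semaphorin receptor of growing axons and lies beyond Podxl, had 539 paternal and 19 maternal reads over the 23 embryos. Its mean P-score was between 0.43 and 0.48 in all 6 groups, with 16 to 37 allele-assigned reads per embryo. Between M-Z- and M+Z+ embryos it differed by 0.01 in females (exact permutation p = 0.714) and 0.05 in males (exact p = 0.429). On the other side of the uncovered stretch, Tspan33, a tetraspanin gene, had 3 paternal and 1515 maternal reads. The edgeR test of a share other than even called 18.8% of 6487 genes in female and 17.4% of 6442 genes in male M+Z+ embryos. A call does not need a share as far from even as those of Plxna4 and Tspan33. Of all reads, 1.67% for Plxna4 and 8.17% for Tspan33 were assigned to an allele. In all embryos the maternal genome came from the same strain and the paternal genome from DBA. For these shares, parent of origin thus cannot be told apart from strain or read mapping, and the cause was not tested.

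Genes of other control regions place the size of these changes. Plagl1, a paternally expressed zinc finger gene on chromosome 10, had a log2 change of 1.00 ± 0.06 in females and a fold change of 2.14 in males (edgeR adjusted p = 2.12e-08 and 5.25e-05). Peg10, a paternally expressed gene of chromosome 6 derived from a retrotransposon, had changes of 0.04 ± 0.062 and 0.02 ± 0.076 that did not pass. The log2 ratio of Mest to Peg10 was higher in M-Z- than in M+Z+ embryos by 0.83 in both sexes, with exact permutation p of 0.00476 in females and 0.0286 in males, each the smallest that the design can give, and of 0.0143 and 0.0571 adjusted over 6 ratio tests. The log2 ratio of Mest to Plagl1 differed by -0.12 in females and -0.26 in males, which the exact test did not separate from the spread (p = 0.314 in both). Kcnk9, a maternally expressed potassium channel gene of chromosome 15, had fold changes of 0.638 and 0.467 that did not pass (edgeR adjusted p = 0.107 and 0.184). The log2 ratio of Klf14 to Kcnk9 fell by 1.31 in females (exact p = 0.00476, adjusted p = 0.0143). Its difference in males was -0.09 (exact p = 0.886) and turned positive when M-Z- replicate 1 (0.55) or M+Z+ replicate 3 (0.03) was left out, and the difference between the sexes was not tested.

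**Figure D5:**
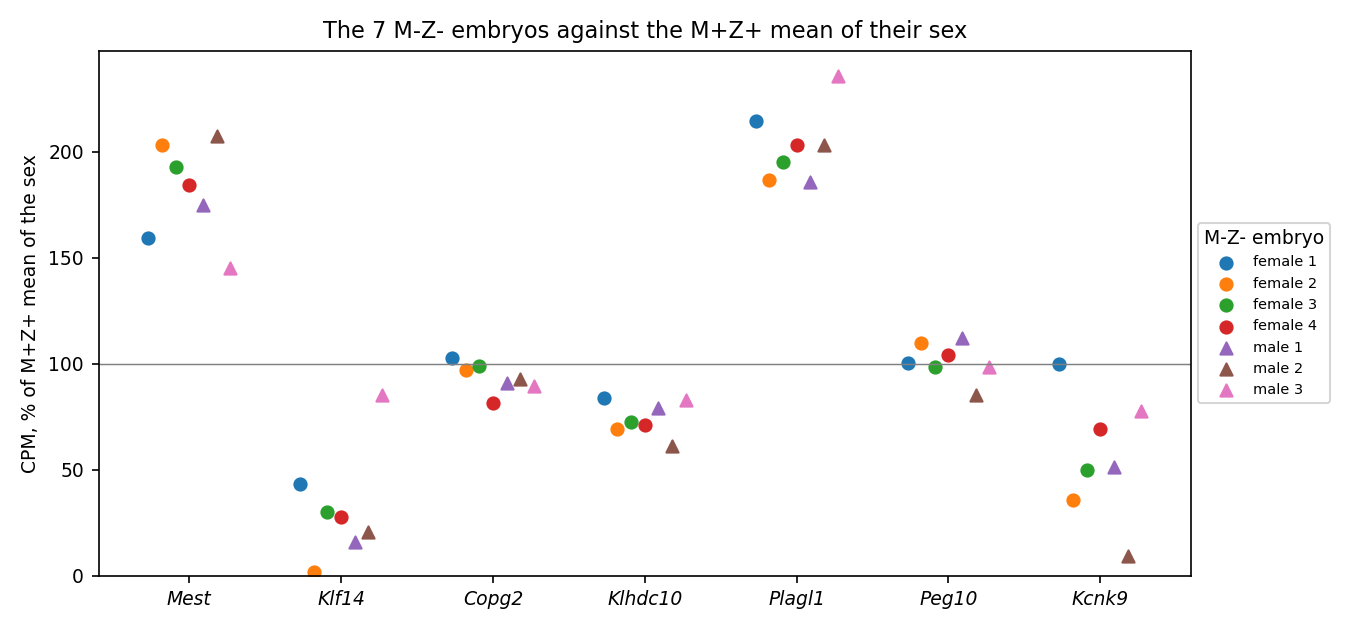
CPM of 7 genes (horizontal axis) in each of the 7 M-Z- embryos as a percentage of the M+Z+ mean of its sex (vertical axis, grey line at 100%), circles for females and triangles for males. Mest lies between 145% and 208% and Plagl1 between 186% and 236%, Peg10 and Copg2 lie near 100%, and Klf14 runs from 1.86% to 85.3% in the same embryos.

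Genes most like each member over the 23 embryos were listed by Pearson's r of log2(CPM + 0.5) among 15503 genes, as a description without a test, since all embryos share the 6 groups. For Mest these were Usp29 (r = 0.95), Inpp5f (0.95), Nnat (0.94), Rian (0.94) and Ddc (0.94), on chromosomes 7, 7, 2, 12 and 11. For Klf14 they were Itih5l-ps (0.89), Gsta3 (0.88), Zim1 (0.88), Dlk1 (0.86) and Klhdc10 (0.85), and for Copg2 they were Phyhipl (0.85), Pggt1b (0.78), Fbxo32 (0.73), Pappa2 (0.73) and Atp6v1b2 (0.72). Mest and Klf14 had r = -0.88, which placed Mest at rank 15502 in the list of Klf14. With the mean of each group subtracted, Pggt1b stayed among the 5 genes nearest to Copg2 and Itih5l-ps among those nearest to Klf14. Cnn2 (0.82), Myl9 (0.82), Lrrc27 (0.81), Cdkn1b (0.78) and Dnajc5 (0.78) were nearest to Mest, and Sytl2 (0.85), Klhl13 (0.84), Colq (0.82), Grin1 (0.80) and Itih5l-ps (0.80) to Klf14. Cul3 (0.86), Pggt1b (0.80), Arhgap5 (0.80), Spry3 (0.80) and Coro2a (0.80) were nearest to Copg2. After this subtraction, pooled over the 23 embryos, r with Mest was 0.71 for Mir335 and -0.65 for Klf14. The value for Klf14 does not hold in each group. Over the M+Z+ embryos alone r of Mest and Klf14 was 0.51. Over the M-Z- embryos it was -0.77, and -0.34 without the 2 embryos farthest from the median of Mest.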

How the data were processed

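RNA-seq reads of whole E13.5 embryos were aligned by the authors to mm9 with STAR 2.7.8a and counted in genes by strand with featureCounts of Subread 2.0.1 (overlaps between genes allowed), so the deposited values are raw read counts per gene. For the allelic tables the authors aligned reads to a genome masked at 129/DBA variants and counted maternal and paternal reads. Genes without a variant in a read have no allele count. Of the allelic columns, 4 of female M+Z+ embryos share names and were used as that group without numbers. CPM divides a count by the library total, and TPM also by the deposited exon length.

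Genotypes were compared within a sex by edgeR 4.0.16 (TMM scaling, quasi-likelihood test, R 4.3.3) over all genes kept by its filter, with Benjamini-Hochberg adjustment. Called means adjusted p under 0.05 and a log2 change of at least 0.5 (0.3 between the sexes). Intervals of a change are normal 95% intervals from its SE. P-scores used embryos with more than 10 allele reads. The tests were tested on simulated data. DESeq2 1.42.0, other scalings, filters, sample sets and leaving out each embryo were the alternatives. Shared replicate numbers were checked and not used as pairs, since same-numbered embryos did not deviate together in the median. Named genes were the members, the fixed neighbour, COPI, Kruppel-like and comparison lists, and the 5 genes most like each member. An item of the neighbour list is not reported here and is left out of that list's counts, median and plots. The members and lists were chosen with earlier results of these data known. By the paper's crosses, M+Z+ embryos had Zfp57+/- mothers, and M-Z+ and M-Z- embryos had Zfp57-/- mothers. M+Z+ embryos thus cannot share a litter with the others. In contrasts with M+Z+, genotype cannot be told apart from mother and litter. Labels do not say which embryos shared a litter, and p-values measure the spread between embryos only.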

Additional observations from a re-analysis of the deposited data

How the results depend on the processing

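For M-Z- against M+Z+ Mest in females kept its direction and call in every alternative, at 0.83 to 0.95 over leaving out each embryo and 0.86 to 0.91 otherwise. Mest in males was 0.68 to 1.00 over leaving out each embryo, where every call held, and 0.82 to 0.87 otherwise, lowest without scaling. The male Mest call was lost with M+Z+ embryos numbered 1 to 3 left out (0.87, adjusted p = 0.999), which leaves a single control. For M-Z- against M-Z+ in males Mest was not called with a fit of those 2 groups (0.81, adjusted p = 0.344), and ran from 0.63 to 0.95 over leaving out each embryo. Klf14 in females kept its call over leaving out each embryo (-2.32 to -1.56). With 1 genotype effect for both sexes in all 23 embryos, Klf14 was called for M-Z- against M+Z+ (-1.65) and M-Z+ (-1.57), and its M-Z+ against M+Z+ change was -0.084, reversed in males. In that fit Copg2 changed by -0.0075 for M-Z+ against M+Z+, reversed in females. Klf14 was also called for female M-Z- against M-Z+ without a filter on low counts (-1.77). Over leaving out each embryo Klf14 ran from -2.15 to -1.39 for female M-Z- against M-Z+, from -2.38 to -0.88 for male M-Z- against M+Z+, from -2.44 to -0.94 for male M-Z- against M-Z+ and from -0.078 to 0.23 for male M-Z+ against M+Z+. Copg2 in males changed sign with M+Z+ embryos numbered 1 to 3 left out, at 0.0014 for M-Z- and 0.00865 for M-Z+ embryos, and ran from -0.059 to 0.036 for M-Z- against M-Z+.

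The replicate numbers showed no pairing in the median. Deviations of same-numbered embryos had a median correlation of -0.059 in females and -0.027 in males, and 2 of 10 and 2 of 9 pairs were over 0.1. Their highest value was 0.215 in females and 0.419 in males, against 0.305 and 0.140 among pairs with different numbers. This check cannot decide whether single embryos were paired. With the replicate number as a block, Klf14 in females was -2.06 (adjusted p = 0.103) and Mest for male M-Z- against M-Z+ was 0.80 (adjusted p = 0.0976), each no longer called. The block gave 52, 4, 130 and 38 called genes over all genes for M-Z- and M-Z+ against M+Z+ in females and then in males. P-scores paired by number were not run in females, where 4 of 6 M+Z+ embryos lack a number in the allelic columns, and correlations within males were not run with 4 M+Z+ embryos.

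Sex differences in M+Z+ embryos ran over leaving out each embryo from -0.018 to 0.013 for Mest and from -0.086 to 0.15 for Klf14. The interaction with sex in M-Z- embryos ran from -0.21 to 0.10 for Mest, from -0.095 to 0.0091 for Copg2 and from -0.45 to 1.06 for Klf14. The log2 ratio of Mest to Peg10 in males ran from 0.60 to 0.96, where the smallest possible p is above 0.05, and that of Klf14 to Kcnk9 in males from -0.60 to 0.55. The P-score difference of Podxl in males ran from -0.091 to 0.046 and that of Plxna4 in females from -0.0033 to 0.016. Peg10 changed by -0.056 in females and -0.046 in males with M+Z+ embryos numbered 1 to 3 left out, by -0.019 in males without scaling, and from -0.071 to 0.074 in males over leaving out each embryo.

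Counts of called genes over all genes depended on the samples and the tool. For female M-Z- against M+Z+ 95 were called, 212 with no minimum change, 148 by DESeq2, 228 with M+Z+ embryos numbered 4 and above left out and 55 to 116 over leaving out each embryo, lowest without female M-Z- replicate 2. For female M-Z+ against M+Z+ 10 were called, 3 with only the 2 groups, 80 without the M+Z+ embryos numbered 4 and above and 5 to 12 over leaving out each embryo. For female M-Z- against M-Z+ 33 were called. For male M-Z- against M+Z+ 65 were called, 99 without a filter, 184 by DESeq2, 40 with only the 2 groups, 3 and 144 without the M+Z+ embryos numbered 1 to 3 and 4 and above, 275 in 1 fit of 6 groups and 41 to 899 over leaving out each embryo, highest without male M-Z- replicate 3. For male M-Z+ against M+Z+ 8 were called, 13 by DESeq2, 0 and 54 without those 2 sets of M+Z+ embryos and 0 to 54 over leaving out each embryo. For male M-Z- against M-Z+ 25 were called, 57 by DESeq2, 16 with only the 2 groups, 48 in 1 fit of 6 groups and 17 to 376 over leaving out each embryo, highest without male M-Z- replicate 3. With sex as a term, 365, 13 and 93 were called for the 3 contrasts. The cause of these differences was not tested beyond the fewer embryos in a fit. Depth limits Klf14 in M-Z- embryos, with 3 to 116 reads, and Mir335.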

Other observations

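The M-Z+ embryos, which had no call for any of the 3 genes, also differed among themselves. Female M-Z+ replicates 2 and 3 had Mest at 121% and 114% and Klf14 at 82.6% and 83.3% of the M+Z+ mean of the sex, and male M-Z+ replicate 3 had 112% and 79.6%. Female M-Z+ replicate 1 had 103% and 102%, and male M-Z+ replicates 1 and 2 had Mest at 107% and 96.3% and Klf14 at 126% and 111%. These values were singled out after they were seen and were not tested.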
